A study of Mus musculus with 71 samples.

Results

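Mast cells store serine proteases and a carboxypeptidase in their granules and depend on the receptor tyrosine kinase Kit and its ligand, stem cell factor, the product of Kitl. The 8 genes followed here were the chymases Mcpt1, Mcpt2, Mcpt4, and Cma1, the mast cell carboxypeptidase Cpa3, the tryptase Tpsb2, Kit, and Kitl, out of 24475 gene identifiers in each of 3 bulk RNA-sequencing tables. All 8 were found in each table. They were listed in part because Mcpt2 was lower in the γδ intraepithelial lymphocyte (IEL) libraries of the duodenum of Btnl2-KO mice, so those libraries are described without a test.

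The bulk libraries came from mice carrying a LacZ knock-in null allele of Btnl2, a butyrophilin-like gene expressed in the small intestinal epithelium, and from WT mice, both on a C57BL/6 background. From whole tissue there were 7 and 7 libraries (Btnl2-KO and WT) for the small intestine (SI) and 7 and 6 for the colon, whose labels read YNG with no age in weeks. The epithelial (IEC) fraction of mice aged 7 weeks gave 2 and 3 libraries of the duodenum, 3 and 3 of the jejunum, and 3 and 2 of the ileum. γδ IELs, sorted as CD45+ TCRβ- TCRγδ+ cells from mice whose labels give an age of 10 weeks, gave 3 and 4 libraries of the duodenum, 4 and 4 of the jejunum, and 3 and 4 of the ileum, each from a pool of 2 mice. A single-cell library of γδ IELs from mice labelled 8 to 10 weeks old was made for each segment and genotype. By the paper's methods, part of each bulk γδ IEL sample was pooled by segment and genotype for single cells. The single-cell and bulk γδ IEL libraries may thus share mice. Apart from the pools, nothing in the labels says which libraries share an animal, so p-values measure the spread between these libraries.

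In the mouse, mast cells are divided into mucosal cells, which reside in the intestinal epithelium and lamina propria and carry the chymases encoded by Mcpt1 and Mcpt2, and connective tissue cells, which reside in the submucosa and muscle and carry those encoded by Mcpt4 and Cma1 together with tryptase and Cpa3. Mcpt1 protein is released when mucosal mast cells are activated and loosens the epithelial barrier during the expulsion of nematodes. Kit is also carried by the interstitial cells of Cajal, the pacemaker cells of the gut muscle, and by a number of lymphocytes, while Kitl is made by epithelial and stromal cells.

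The 4 chymase genes lie together on chromosome 14, with Cma1 at 55941451 to 55944675, Mcpt1 at 56017964 to 56020391, Mcpt2 at 56021584 to 56044635, and Mcpt4 at 56059744 to 56062310 in GRCm38.p6. This stretch of 120.86 kb holds 8 annotated genes and pseudogenes. Mcpt1 and Mcpt2 are neighbours on the plus strand, and Mcpt9, a further chymase gene, lies within the span of Mcpt2. No 50-base window of transcript was identical in the pairs of chymase genes compared, which did not include Mcpt2 with Cma1. The longest identical run was 49 bases, between Mcpt1 and Mcpt2, and shorter reads from it would fit both genes. The split of estimated counts between these paralogs thus has some uncertainty. Cpa3 lies on chromosome 3 at 20215616 to 20242209, Tpsb2 on chromosome 17 at 25366308 to 25368096, Kit on chromosome 5 at 75574987 to 75656722, and Kitl on chromosome 10 at 100015615 to 100100416.

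The 150 bases before the start site are shown for 4 proteases because GATA factors control mast cell genes and because the proteases below differed in where they were detected. They were taken from the RefSeq promoter table of GRCm38.p6, which held 6 of the 8 genes and not Mcpt2 or Tpsb2. Capitals mark AGATAA or TGATAA, searched on both strands. The Mcpt1 window is chr14:56017814-56017963 on the plus strand, the Mcpt4 window chr14:56062311-56062460, the Cma1 window chr14:55944676-55944825, and the Cpa3 window chr3:20242182-20242331, the last 3 on the minus strand.
Mcpt1: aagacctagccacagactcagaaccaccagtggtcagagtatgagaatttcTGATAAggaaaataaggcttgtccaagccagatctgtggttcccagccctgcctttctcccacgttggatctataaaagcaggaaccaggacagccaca
Mcpt4: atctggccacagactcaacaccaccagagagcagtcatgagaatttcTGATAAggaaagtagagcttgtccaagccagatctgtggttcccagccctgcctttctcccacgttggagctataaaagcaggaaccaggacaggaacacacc
Cma1: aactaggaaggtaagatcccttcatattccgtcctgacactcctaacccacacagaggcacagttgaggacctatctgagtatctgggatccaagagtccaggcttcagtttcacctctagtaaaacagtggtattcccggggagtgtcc
Cpa3: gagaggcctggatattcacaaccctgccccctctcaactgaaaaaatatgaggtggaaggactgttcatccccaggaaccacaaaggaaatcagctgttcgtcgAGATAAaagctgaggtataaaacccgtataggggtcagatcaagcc
The motif began 99 bases before the start site in Mcpt1, 103 bases before it in Mcpt4, and 46 bases before it in Cpa3. Neither AGATAA nor TGATAA was found in the windows of Cma1, Kit, or Kitl. Other forms of the GATA word were not searched, so this is not read as the lack of a GATA site. The Cma1 window holds ctatct, which is AGATAG on the other strand. Of 27025 promoters of the same length, 9.91% held AGATAA or TGATAA. The Mcpt1 and Mcpt4 windows were 85.7% identical in an alignment, and those of Mcpt1 and Cma1 50.3%. TATAAA on the gene strand began 28, 32, and 31 bases before the start in Mcpt1, Mcpt4, and Cpa3, a word held by 5.26% of all such windows.

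Levels are given as CPM, counts scaled to 1000000 per library with TMM factors within each table, so that levels in different tables are only set side by side. Total counts were 13444958 to 38258472 per library. Btnl2 itself was lower in every Btnl2-KO bulk library than in the WT libraries of its group, but the libraries labelled Btnl2-KO replicate 2 of jejunal IECs and replicate 1 of duodenal IECs still held 18.8 and 5.48 CPM, against 0.34 to 0.60 CPM in the other Btnl2-KO IEC libraries. A Btnl2-KO ileal IEC library held 0.24 CPM of Fabp6, the ileal bile acid-binding protein, against 222 to 618 CPM in the other 4 ileal libraries. Among the SI tissue libraries, 2 WT and 1 Btnl2-KO library had over 10 CPM of Gata4, a transcription factor of the proximal small intestine. Some results that rest on these libraries are also given without them. Differences between genotypes in duodenal IECs are given with all libraries only. The permutation tests and the tissue interaction below were not repeated without the SI libraries with Gata4. In bulk RNA, fewer cells of a type and less RNA per cell cannot be told apart.

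Mcpt1 and Mcpt2 were far higher in SI than in colon tissue, in both genotypes. In WT SI tissue, Mcpt1 was 2.25 to 21.2 CPM (median 4.92, n = 7), and in WT colon 0.14 to 1.10 CPM (median 0.63, n = 6). In Btnl2-KO mice it was 3.57 to 11.7 CPM in SI (median 7.13, n = 7) and 0.34 to 0.80 CPM in colon (median 0.50, n = 7). No colon library reached the lowest SI library of its genotype. Mcpt2 was 1.001 to 7.75 CPM in WT SI (median 1.54) and 0.14 to 0.35 CPM in WT colon (median 0.30). In Btnl2-KO mice Mcpt2 was 2.08 to 4.46 CPM in SI (median 3.15) and 0.086 to 0.60 CPM in colon (median 0.24), again without overlap. On the log2 scale, colon minus SI was -3.33 ± 0.57 (SE) in WT and -3.82 ± 0.27 in Btnl2-KO mice for Mcpt1, and -3.09 ± 0.53 and -3.37 ± 0.28 for Mcpt2. All 4 differences passed the test, edgeR's quasi-likelihood test with Benjamini-Hochberg adjustment, at adjusted p = 0.00026, 1.07e-08, 0.00027, and 6.88e-08. Such calls, at an FDR below 0.05 and a fold change above 1.5, were made for 27.6% of 15162 genes in WT and 30.2% of 14798 genes in Btnl2-KO tissue, and 24.7 and 27.1% of genes did not overlap. The WT library with 21.2 CPM of Mcpt1 stood apart, and without it the WT differences were -2.70 for Mcpt1 and -2.45 for Mcpt2. Without the SI libraries with Gata4, Mcpt1 differed by -3.42 in WT and -3.82 in Btnl2-KO tissue, and Mcpt2 by -3.20 and -3.36. In the test of an interaction between tissue and genotype, Mcpt1 (-0.50 ± 0.64), Mcpt2 (-0.29 ± 0.64), Cma1, and Kitl (-0.09 ± 0.20) did not pass (adjusted p = 0.76, 0.87, 0.42, and 0.88 in edgeR). In WT tissue Kit was the third of the 4 members tested to be called, and in Btnl2-KO tissue Mcpt1 and Mcpt2 were the 2 called.

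**Figure D1:**
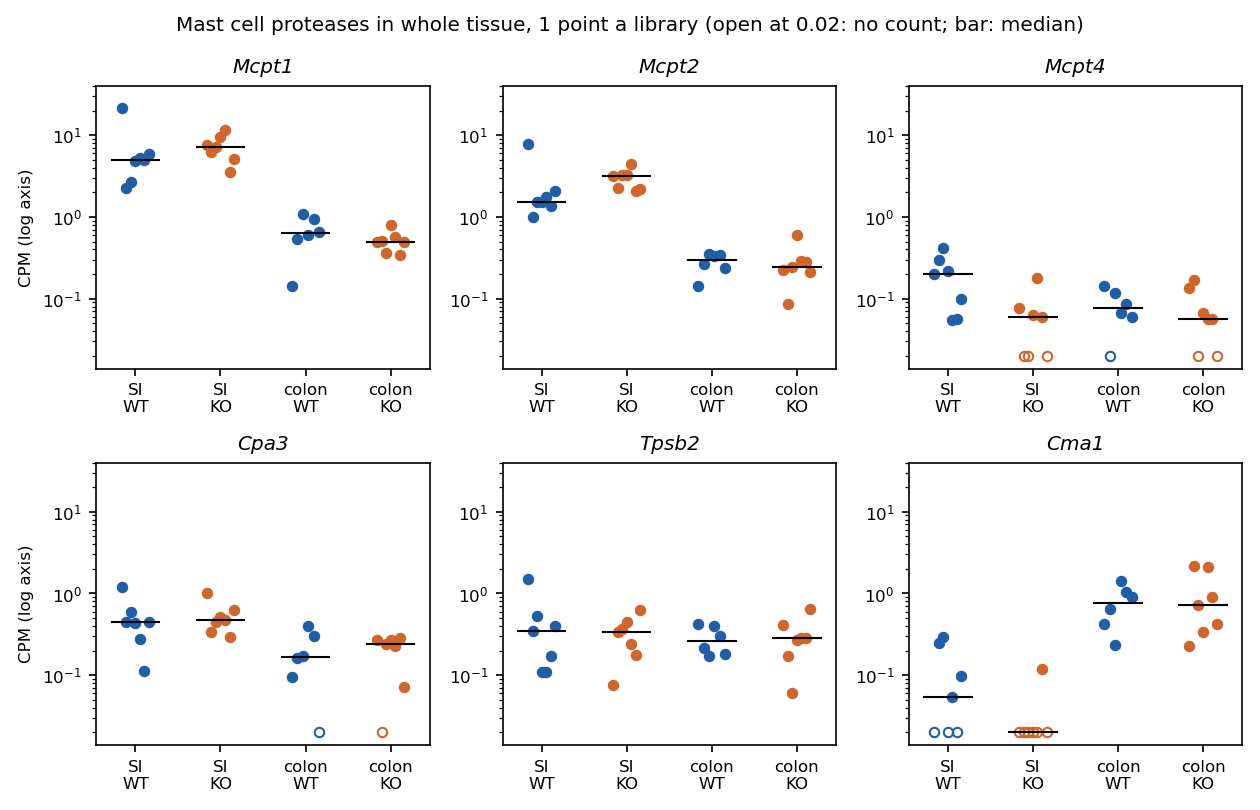
Level of each protease gene, in CPM on a log axis, in every small intestine and colon tissue library of WT (blue) and Btnl2-KO mice (orange), with the median of each group as a bar and libraries without a count as open symbols at 0.02. Mcpt1 and Mcpt2 sit higher in the small intestine in both genotypes, with medians of 4.92 against 0.63 CPM for Mcpt1 in WT mice, and Cma1 sits higher in the colon.

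Cma1, whose product is the chymase of connective tissue mast cells, had the opposite distribution. In WT colon it was 0.23 to 1.40 CPM (median 0.77), and in WT SI 0 to 0.29 CPM (median 0.055). In Btnl2-KO colon it was 0.23 to 2.14 CPM (median 0.72), whereas 6 of the 7 Btnl2-KO SI libraries held no count and the other 0.12 CPM. Cma1 was too low in SI for the count minimum, so that an exact two-sided permutation test was run on log2(CPM + 1) for this gene, Mcpt4, Cpa3, and Tpsb2 in both genotypes, 8 tests in all. By this exact permutation test, colon minus SI was 0.66 for Cma1 in WT mice (p = 0.0035, adjusted p = 0.0093) and 0.87 in Btnl2-KO mice (p = 0.00058, the smallest these samples allow, adjusted p = 0.0023). Groups overlapped in WT mice and not in Btnl2-KO mice. This scale understates changes of genes with under 1 CPM.

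Cpa3, which encodes the granule carboxypeptidase, was lower in colon. It was 0.11 to 1.21 CPM in WT SI (median 0.44) and 0 to 0.40 CPM in WT colon (median 0.17). In Btnl2-KO mice it was 0.30 to 0.9997 CPM in SI (median 0.48) and 0 to 0.28 CPM in colon (median 0.24). By the same exact permutation test, colon minus SI was -0.35 in Btnl2-KO mice (p = 0.00058, adjusted p = 0.0023, no overlap) and -0.32 in WT mice, which missed the threshold after adjustment (p = 0.035, adjusted p = 0.070). Mcpt4 did not exceed 0.41 CPM in any tissue library, and Tpsb2 lay between 0.06 and 0.64 CPM in all tissue libraries but the WT SI library that also held most Mcpt1, at 1.48 CPM. Neither passed the permutation test in either genotype (adjusted p = 0.11 and 0.79 for Mcpt4 and 0.79 and 0.82 for Tpsb2). Per kilobase of exon in WT SI tissue, Mcpt1 stood at 6.64 ± 6.44 (SD, n = 7) and Mcpt2 at 2.29 ± 2.23 CPM per kb, and Mcpt4, Cma1, Cpa3, and Tpsb2 at 0.09 to 0.33 CPM per kb. In WT colon the order changed, with Cma1 at 0.71 ± 0.39 and Mcpt1 at 0.66 ± 0.33 CPM per kb (SD, n = 6), values that did not differ beyond their spread.

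Of 14 further mast cell genes, 6 were tested in tissue. In WT mice 2 were lower in colon and none higher, Il1rl1, the receptor for IL-33, by -3.36 ± 0.86 (SE) on the log2 scale, and Hdc, the enzyme that makes histamine, by -1.60 ± 0.23. Without the SI library with most Mcpt1, Il1rl1 differed by -1.72 ± 0.33 (adjusted p = 0.00073 in edgeR). In Btnl2-KO mice 3 were lower, Il1rl1, Hdc, and Slc18a2, which loads amines into granules, and Gata2, a transcription factor of mast cells and other lineages, was higher by 0.82 ± 0.25. Calls over all genes stood at the 27.6 and 30.2% given above, and with 6 genes tested these counts are not read against them. The median of the list was -0.22 in WT and -0.38 in Btnl2-KO mice, against -0.025 and 0.021 over all genes tested. Il1rl1 was 5.04 to 148.8 CPM in WT SI tissue, and its highest library was the one with most Mcpt1, Mcpt2, and Tpsb2. Among 8 cytokines that act on mast cells, 3 were tested, and Il33, an alarmin of epithelial and stromal cells, was lower in colon by -1.48 ± 0.33 in WT and -1.37 ± 0.28 in Btnl2-KO mice. Tslp, another epithelial alarmin, was higher in WT colon by 0.59 ± 0.23 (adjusted p = 0.045 in edgeR), and differed by 0.52 ± 0.22 in Btnl2-KO mice (adjusted p = 0.060). Tgfb1 was not called in either genotype. Fcer1a and Ms4a2, subunits of the IgE receptor, did not exceed 0.54 and 0.48 CPM in any tissue library, and Tpsab1, the other mast cell tryptase, had no count in 3 of the 4 tissue groups. The part of other cells in Il1rl1, Hdc, Slc18a2, and Gata2, which are not made by mast cells alone, was not tested.

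The IEC fraction also held Mcpt1 and Mcpt2. In WT mice, Mcpt1 was 4.19, 7.78, and 2.87 CPM in the 3 duodenal libraries, 4.28, 12.4, and 13.2 CPM in the jejunal, and 31.5 and 13.7 CPM in the ileal libraries. Both ileal values lay above all duodenal and jejunal ones. Between ileum and duodenum 36.7% of genes did not overlap, and between ileum and jejunum 22.1%. Mcpt2 was 1.69, 3.10, and 1.17 CPM in duodenal, 1.55, 4.39, and 5.08 CPM in jejunal, and 11.3 and 5.54 CPM in ileal libraries, in the same order of libraries. Ileum minus duodenum was 2.196 ± 0.561 (SE) for Mcpt1 and 2.09 ± 0.56 for Mcpt2 on the log2 scale, just short of the threshold in edgeR (adjusted p = 0.052 and 0.060) and past it with DESeq2 (adjusted p = 0.0023 and 0.0051). Jejunum minus duodenum was 0.99 ± 0.52 for Mcpt1 and 0.86 ± 0.53 for Mcpt2 (adjusted p = 0.40 and 0.45 in edgeR), and ileum minus jejunum 1.19 ± 0.55 and 1.21 ± 0.54 (adjusted p = 0.83 and 0.79). Kit was the 1 member called between ileum and duodenum, where 6.59% of 13046 genes were. Without the ileal library with 31.5 CPM, the differences were 1.45 for Mcpt1 and 1.46 for Mcpt2. Of the mast cell list, 5 genes were tested and 2 called. Tpsg1, a transmembrane tryptase, was higher in the ileum by 1.35 ± 0.22. The other, Ms4a2, which encodes the β subunit of the IgE receptor, met the count minimum only through its ileal libraries. Its levels of 0 to 0.076 CPM in the duodenum and 0.36 and 0.67 CPM in the ileum are given as a description. In the single-cell γδ IEL libraries below, no Tpsg1 transcript was in the cells rich in protease RNA. Tpsg1 UMIs numbered 26 in the jejunal, 11 in the ileal, and 2 in the duodenal Btnl2-KO library. The duodenal WT library held 12, the ileal WT library 11, and the jejunal WT library none. The part of other cells in the Tpsg1 level of IECs was not tested. Cpa3 was 0.14 to 0.30 CPM in the duodenum and 0.66 and 0.89 CPM in the ileum (1.78 ± 0.65, adjusted p = 0.16 with edgeR), and its other 2 differences were 0.58 ± 0.65 and 1.19 ± 0.62 (adjusted p = 0.66 and 0.95 in edgeR). Cma1 had a single count in all 16 IEC libraries, and Tpsb2 none in the 6 jejunal ones. A γδ IEL list summed to 127 to 374 CPM in 15 of the IEC libraries and to 23.8 CPM in the Btnl2-KO ileal library without Fabp6, so most IEC libraries also held lymphocytes. In WT mice a list of 5 myeloid genes summed to 23.9 to 30.03 CPM in the duodenum, 43.6 to 53.6 CPM in the jejunum, and 86.8 and 96.5 CPM in the ileum. A list of 7 smooth muscle and mesenchymal genes summed to 9.79 CPM in the ileal library with 31.5 CPM of Mcpt1 and to no more than 0.58 CPM in the other 7 WT IEC libraries. The part of these cells in the protease levels was not tested.

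Sorted γδ IEL libraries varied widely in Mcpt1 and Mcpt2 within a group. In the WT jejunum Mcpt1 was 2.55, 22.9, 5.46, and 5.03 CPM, and in the WT ileum 0, 12.5, 26.9, and 1.41 CPM. In the Btnl2-KO jejunum it was 8.63, 0.31, 5.81, and 11.3 CPM, and in the Btnl2-KO ileum 0.12, 7.62, and 5.60 CPM. Thus libraries of a single group ranged from no count to 26.9 CPM. Mcpt2 was 3.62, 13.1, 2.41, and 2.12 CPM in the WT jejunum and 0, 3.60, 14.4, and 0.51 CPM in the WT ileum, in the same order. In Btnl2-KO mice it was 4.95, 0.038, 4.59, and 5.56 CPM in the jejunum and 0.19, 1.04, and 2.85 CPM in the ileum. The 3 libraries with under 0.5 CPM of Mcpt1 were also those with the least Mcpt2, but the order was not the same throughout, and WT jejunal replicate 1 had the least Mcpt1 of its group and the second most Mcpt2. With these spreads, ileum minus jejunum was 0.17 ± 1.12 (SE) for Mcpt1 and -0.21 ± 1.11 for Mcpt2 in WT γδ IELs, differences that the data bound only loosely. In Btnl2-KO γδ IELs it was -0.53 ± 1.21 and -1.48 ± 1.25. Cpa3 was 1.84, 4.04, 2.04, and 2.25 CPM in the WT jejunum and 0.42, 2.59, 0.80, and 0.79 CPM in the WT ileum, which overlap (-1.16 ± 0.53, adjusted p = 0.12 in edgeR). In Btnl2-KO mice it was 2.02, 1.72, 3.49, and 2.61 CPM in the jejunum and 0.93, 1.41, and 1.04 CPM in the ileum, without overlap, as for 3.19% of genes (-1.14 ± 0.49, adjusted p = 1.0 in edgeR). The interaction of segment and genotype passed for none of Mcpt1, Mcpt2, and Cpa3 (adjusted p = 0.89, 0.79, and 1.0 in edgeR).

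In the duodenum, where the genes were chosen, Mcpt2 was 0.76, 0.24, and 1.99 CPM in the Btnl2-KO libraries (13, 4, and 38 counts) and 5.02, 4.51, 5.54, and 7.34 CPM in the WT libraries (74, 85, 116, and 93 counts). Mcpt1 was 2.87, 0.73, and 4.55 CPM against 9.84, 4.62, 11.5, and 13.8 CPM. For both, the Btnl2-KO libraries lay below the WT libraries, for Mcpt1 with the nearest pair at 4.55 and 4.62 CPM, and 1.85% of 12680 genes were lower without overlap. The fitted log2 differences were -2.46 for Mcpt2 and -1.85 for Mcpt1, and without the Btnl2-KO library with 1.99 CPM that of Mcpt2 was -3.45. Mcpt4 had no count in the 3 Btnl2-KO libraries and 15, 13, 4, and 0 counts in the WT libraries. Cpa3 was 0.995, 0.97, and 1.10 CPM in Btnl2-KO and 1.36, 1.01, 2.96, and 1.58 CPM in WT libraries, which overlap. Fcer1a was 0 to 0.67 CPM in Btnl2-KO and 0.47 to 0.67 CPM in WT libraries. The summed mast cell list was 41.1 to 45.0 CPM against 38.8 to 53.4 CPM, with 7 of 14 genes at 0 in Btnl2-KO and 5 of 14 in WT libraries. Most of that sum was Hpgds, a prostaglandin D synthase, at 27.2 to 42.9 CPM. In the duodenal single-cell γδ IEL libraries, Hpgds transcripts were found in 697 of 3911 Btnl2-KO cells and 849 of 3931 WT cells. The sum is therefore not read as a level of mast cells.

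Across libraries the levels of Mcpt1 and Mcpt2 went together. With group means subtracted, each was the gene most like the other in all 3 tables, with Pearson's r of log2(CPM + 1) of 0.92 over 27 tissue libraries, 0.98 over 16 IEC libraries, and 0.92 over 22 γδ IEL libraries. Between 12461 and 14781 genes were compared per table, and libraries share depth and dissection, so these are descriptions. The part of reads that fit both paralogs in these correlations was not tested. Where the pair had at least 10 counts, Mcpt2 took 21.6 to 45.5% of them in tissue (median 29.8%, 25 libraries), 24.8 to 35.8% in IECs (median 28.8%, 16 libraries), and 12.0 to 58.7% in γδ IELs (median 32.99%, 19 libraries). In γδ IELs the correlation of Mcpt1 was 0.59 with Cpa3, 0.69 with Kitl, and -0.22 with Kit. In IECs that with Kitl had the opposite sign, at -0.72, and that with Kit was 0.33. In tissue, Kit and Mcpt1 were uncorrelated (r = 0.002).

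**Figure D2:**
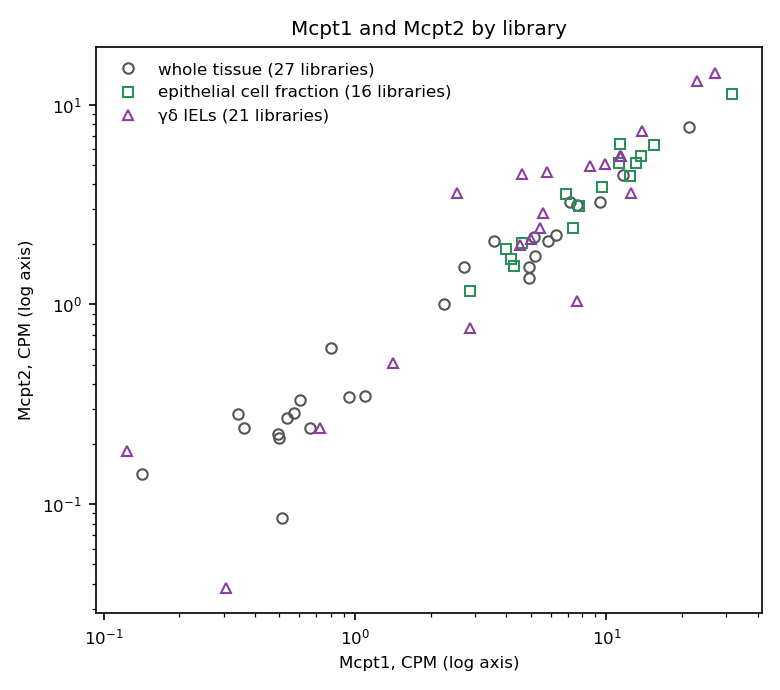
Mcpt2 against Mcpt1 in CPM, on log axes, for 64 bulk libraries of tissue, IECs, and γδ IELs; 1 γδ IEL library with no count of either is left out. Libraries of all 3 tables lie along a band in which Mcpt2 rises with Mcpt1.

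Single cells showed how the protease RNA was spread in sorted γδ IELs. Of 23994 barcodes, 23569 passed the limits of 500 genes or more and no more than 10% mitochondrial UMIs, and 367 barcode sequences occurred in more than 1 library. Transcripts of Cd3d, Cd3e, or Cd3g were found in 99.6 to 99.9% of the cells of each library. The 6 proteases had 10994 UMIs in all, and 10831 of them (98.5%) were in 4 cells, defined by 10 or more protease UMIs, a limit chosen after the values were seen. The other 152 cells with a protease UMI held at most 4 each and 163 together, most of them Cpa3. The jejunal Btnl2-KO library had 1 such cell, with 2040 UMIs of Mcpt1, 1048 of Mcpt2, 37 of Cpa3, 3 of Mcpt4, and 8 of Kit. The ileal Btnl2-KO library had 1, with 1273 of Mcpt1, 448 of Mcpt2, 19 of Cpa3, 8 of Mcpt4, and none of Kit. The ileal WT library had 2, with 1904 and 2307 UMIs of Mcpt1, 757 and 818 of Mcpt2, 40 and 50 of Cpa3, 72 and 7 of Mcpt4, and 4 and 7 of Kit. All 4 held Fcer1a (14 to 61 UMIs), Ms4a2, Gata2, and Mcpt9 (21 to 202 UMIs), and none held Cma1 or Tpsb2. The jejunal cell, at 24865 UMIs the deepest of the 4, also held 20 UMIs of Cd3e and 238 of Gzma, a granzyme of γδ IELs, whereas the other 3 held no Cd3e and 1 of them a single UMI of Cd3g. Doublets were not called.

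With 1 library for each segment and genotype there is no test of genotype. Mcpt2 had no UMI in the duodenal Btnl2-KO, duodenal WT, and jejunal WT libraries, which at a floor of 3 UMIs allows up to 0.15, 0.14, and 0.16 CPM of UMIs. These are the 3 libraries without a protease-rich cell, and the sums of the other 3 rest on 1 or 2 cells each. Cpa3 was found in 18 duodenal Btnl2-KO cells and 33 duodenal WT cells, or 0.46% (exact binomial 95% interval 0.27 to 0.73%) and 0.84% (0.58 to 1.18%), at medians of 4877 and 5105 UMIs per cell. These intervals cover counting error only. Free RNA was not measured separately, and no cell type that should lack Cpa3 was set beside these shares, so they are not read as expression. In contrast, Kit had a UMI in 20.7% of duodenal WT, 19.9% of jejunal WT, and 21.6% of ileal WT cells, and in 21.2, 21.9, and 23.8% of Btnl2-KO cells. Its level was 61.5 to 73.0 CPM of UMIs. Epcam, an epithelial gene, was at 86.1 to 135 CPM of UMIs in the same libraries, and the part of free RNA in the Kit values was not tested. Cells with Kit were somewhat deeper (median 5365 against 4760 UMIs in the duodenal Btnl2-KO library). Kitl had only 2 to 15 UMIs per library.

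**Figure D3:**
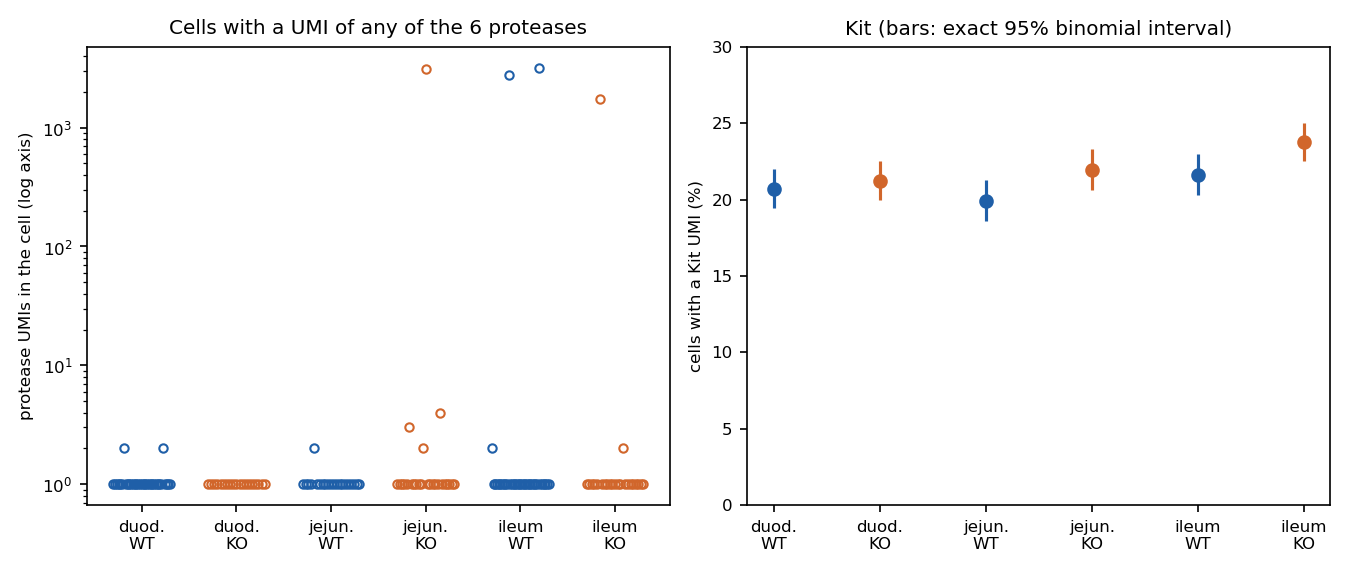
Left, protease UMIs per cell on a log axis in the 6 single-cell γδ IEL libraries, and right, the percentage of cells with a Kit UMI with its exact 95% binomial interval. Of all cells, 4 lie far above the rest in protease UMIs, and Kit is found in 19.9 to 23.8% of cells in every library.

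Kit and Kitl had far more reads than the proteases in tissue. Kitl was low in γδ IELs, with 0 to 284 counts per library. In WT SI tissue, Kitl stood at 24.7 ± 2.84 and Kit at 8.71 ± 2.55 CPM per kb (SD, n = 7), of which Kit did not differ from Mcpt1 beyond the spread. In γδ IELs of the WT jejunum, Kit was at 18.8 ± 2.90 and Kitl at 0.76 ± 0.47 CPM per kb (SD, n = 4). The receptor was thus the higher in sorted lymphocytes and the ligand the higher in tissue. In WT ileal IECs, Mcpt1 stood at 22.3 ± 12.4, Kitl at 18.5 ± 1.32, Mcpt2 at 7.96 ± 3.87, and Kit at 4.57 ± 0.22 CPM per kb (SD, n = 2). In tissue, Kit was 43.0 to 116 CPM in WT SI (median 73.8) and 87.4 to 164 CPM in WT colon (median 102). It was 41.8 to 134 CPM in Btnl2-KO SI (median 60.6) and 39.6 to 141 CPM in Btnl2-KO colon (median 103), so groups overlapped. Kit was higher in WT colon by 0.59 ± 0.20 (SE) on the log2 scale (adjusted p = 0.028 in edgeR), a call that was lost with limma-voom (0.52), in the fit of all 27 tissue libraries (adjusted p = 0.078), and on leaving out colon WT replicate 1 or 3 or SI WT replicate 3, 4, 5, or 6 (0.47 to 0.71 over the 13 refits), and kept without the SI libraries with Gata4 (0.60, adjusted p = 0.013). In Btnl2-KO mice the difference was 0.30 ± 0.30 (adjusted p = 0.43), though limma-voom called it (0.62, adjusted p = 0.019), and the interaction of tissue and genotype did not pass (-0.28 ± 0.39, adjusted p = 0.78 in edgeR, 0.0193% of genes called). Kitl differed by 0.20 ± 0.08 in WT and 0.11 ± 0.18 in Btnl2-KO mice, neither called (adjusted p = 0.060 and 0.63 in edgeR).

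Markers of the interstitial cells of Cajal moved in part with Kit. In WT tissue Ano1, their chloride channel, was higher in colon by 2.90 ± 0.16 and Thbs4 by 6.03 ± 0.18, Adgrd1 was lower by -1.27 ± 0.19, and Etv1 was not called. The same 3 genes were called in Btnl2-KO tissue, where Kit was not. Over all genes tested, 27.6% were called in WT and 30.2% in Btnl2-KO tissue. With a list of 4 genes these counts are not read against those shares. The list of 4 summed to 76.5 to 120 CPM in SI and 498 to 818 CPM in colon over both genotypes. Ano1 and Thbs4 are also made by other cells, and the part of these cells in the Kit level was not tested. With group means subtracted, the 4 genes most like Kit over the 27 tissue libraries were Sytl4, Pde2a, Kctd12, and Car8 (r = 0.90 to 0.92), and Kitl ranked 86 with r = 0.79.

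In the IEC fraction of WT mice, Kit was higher in the ileum than in the duodenum. It was 16.2, 13.8, and 20.7 CPM in the duodenum, 32.3, 25.1, and 23.8 CPM in the jejunum, and 42.1 and 39.3 CPM in the ileum. The list of myeloid genes given above was ordered in the same way over the segments, without overlap, and its part in the Kit level was not tested. The 3 segments did not overlap in Kit, and 1 of the 3 differences was called. Ileum minus duodenum was 1.27 ± 0.22 (SE) on the log2 scale (adjusted p = 0.0094 in edgeR), and the call was lost on leaving out either ileal library and in a fit of all 16 libraries (adjusted p = 0.16). Between these segments 36.7% of genes did not overlap. Jejunum minus duodenum was 0.67 ± 0.19 (adjusted p = 0.19, 0.791% of genes called, 20.1% without overlap), and ileum minus jejunum 0.59 ± 0.22 (adjusted p = 0.54, 0.644% called, 22.1% without overlap). In Btnl2-KO mice Kit was 39.96 and 14.5 CPM in duodenal, 27.9, 30.2, and 26.9 CPM in jejunal, and 16.6, 41.0, and 47.1 CPM in ileal libraries. The value of 16.6 is that of the library without Fabp6, which held 21.2 CPM of the myeloid list, and the 39.96 that of the duodenal library that kept some Btnl2, which held 98.8 CPM. Over all IEC libraries Kit lay within 13.8 to 47.1 CPM and Kitl within 53.6 to 200 CPM. Kitl, unlike Kit, was not called between WT ileum and duodenum (0.14 ± 0.35, adjusted p = 0.87 in edgeR). Its other 2 WT differences were 0.26 ± 0.30 and -0.13 ± 0.35. The genes most like Kit over the 16 IEC libraries were Osbpl5, Pde8b, Adamts17, Arhgef40, and Slc22a23 (r = 0.97 to 0.99), and those most like Kitl were Rc3h2, Pcf11, Zfp933, Gpbp1, and Zfp770 (r = 0.98 to 0.99).

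**Figure D4:**
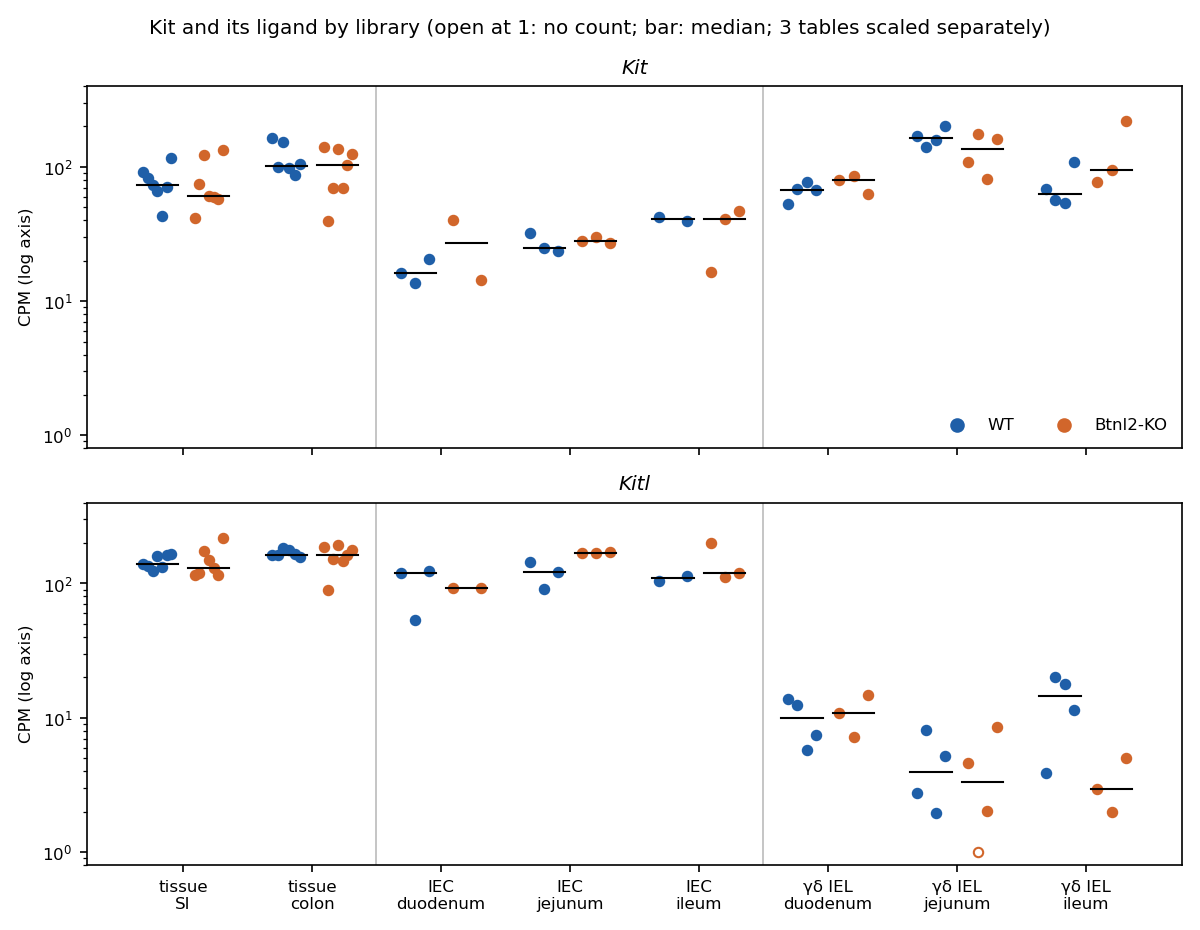
Level of Kit and Kitl in CPM, on a log axis, in every bulk library by segment, tissue, and genotype (WT blue, Btnl2-KO orange), with the median of each group as a bar and a library without a count as an open symbol at 1. Kit of WT γδ IELs lies at 141 to 202 CPM in the jejunum and 53.5 to 109 CPM in the ileum, and Kitl of γδ IELs lies below that of tissue and IECs.

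In bulk libraries of WT γδ IELs, Kit was higher in the jejunum than in the ileum. It was 52.6, 68.0, 77.7, and 66.7 CPM in the duodenum, 169, 141, 158, and 202 CPM in the jejunum, and 68.1, 56.6, 53.5, and 109 CPM in the ileum. Every WT jejunal library was above every duodenal and ileal one, and jejunum and duodenum, between which 34.9% of 12629 genes did not overlap, were not fitted. The single-cell libraries did not have this order, with 66.8 CPM of UMIs in the WT duodenum (exact Poisson 95% interval 63.4 to 70.3), 61.5 in the jejunum (58.02 to 65.1), and 66.9 in the ileum (63.4 to 70.5). In the bulk libraries, ileum minus jejunum was -1.22 ± 0.22 (SE) on the log2 scale (adjusted p = 0.0037 in edgeR), and the call was kept in each of the 8 refits that left out a library. In this comparison 21.7% of 12643 genes were called and 32.5% did not overlap. In Btnl2-KO mice it was 80.3, 84.8, and 62.3 CPM in the duodenum, 108, 174, 81.3, and 162 CPM in the jejunum, and 76.5, 95.1, and 221 CPM in the ileum, which overlap. There ileum minus jejunum was -0.04 ± 0.41 (adjusted p = 1.0 in edgeR), and no gene of 12579 was called, 152 having an unadjusted p under 0.05. The interaction between segment and genotype was 1.18 ± 0.48 for Kit, which did not pass (adjusted p = 0.50 in edgeR, 0% of 13135 genes called and 1247 at an unadjusted p under 0.05) but did with limma-voom (adjusted p = 0.043). Without the Btnl2-KO ileal library with 221 CPM it was 0.60.

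Kitl was low in γδ IELs and went with epithelial RNA. It was 2.75, 8.14, 1.95, and 5.16 CPM in the WT jejunum and 3.88, 20.03, 17.9, and 11.4 CPM in the WT ileum. The sum of 11 epithelial genes in the same libraries was 2363, 5449, 1995, and 3646 CPM in the jejunum and 3376, 8803, 7792, and 6618 CPM in the ileum, so the libraries high in one were high in the other. Ileum minus jejunum was 1.56 ± 0.53 (SE) for Kitl (adjusted p = 0.045 in edgeR), but the call was kept only without ileum replicate 1 or jejunum replicate 2, lost on leaving out each of the other 6 libraries (adjusted p = 0.067 to 0.14), and lost in the fit of all 22 libraries (adjusted p = 0.16). In the duodenum Kitl was 13.7, 12.5, 5.78, and 7.42 CPM in WT and 10.8, 7.14, and 14.9 CPM in Btnl2-KO libraries. In Btnl2-KO mice it was 4.63, 0, 2.02, and 8.56 CPM in the jejunum and 2.97, 2.00, and 4.98 CPM in the ileum (-0.19 ± 1.21, and -1.74 ± 1.31 for the interaction, adjusted p = 0.59 in edgeR), beside epithelial sums of 3471, 601, 1478, and 5334 CPM and 2794, 989, and 3540 CPM. The genes most like Kitl within groups were Atp1b1, Cftr, Cd302, Ppa1, and Pcbd1 (r = 0.97 to 0.98), of which Cftr encodes the chloride channel of epithelial cells. The genes most like Kit were Il6st, Usp47, Susd6, Mtmr1, and Jak2 (r = 0.92 to 0.94).

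Among genes that carry the Kit signal, several were lower in the ileum than in the jejunum of WT γδ IELs, as Kit was. Of 18 listed adaptors, kinases, phosphatases, and transcription factors, all tested, 7 were lower in the ileum than in the jejunum and none higher. The 4 with the lowest p were the lipid phosphatase Inpp5d (-1.08 ± 0.19 SE on the log2 scale), the ubiquitin ligases Cbl (-0.87 ± 0.17) and Cblb (-0.76 ± 0.14), and the PI3-kinase subunit Pik3cd (-0.84 ± 0.19). The median of the list was -0.48, against 0.004 over all genes, of which 10.9% were called lower. These genes serve many receptors of lymphocytes. In Btnl2-KO γδ IELs the median was 0.051, and 0 were called or had an unadjusted p under 0.05 in edgeR. In the interaction of segment and genotype 0 of the 18 were called, 5 had an unadjusted p under 0.05 in edgeR, and the median was 0.41. In WT tissue 2 of the 18, Cbl (1.12 ± 0.17) and Cblb (0.81 ± 0.12), were higher in colon than SI, and 4 were lower, among them the Src family kinases Lyn (-1.13 ± 0.18) and Fyn (-0.84 ± 0.09). In Btnl2-KO tissue 2 were again higher and 4 lower, with Lyn at -1.29 ± 0.16 and Fyn at -0.70 ± 0.10. In each genotype 6 of 18 is near the share of all genes called, 27.6% in WT and 30.2% in Btnl2-KO tissue, so that nothing is read from these counts about Kit signalling. The median was -0.022 in WT and -0.048 in Btnl2-KO tissue. A list of γδ IEL genes summed to 70.0 to 236 CPM in SI and 6.36 to 14.9 CPM in colon, and the part of lymphocytes in the values of Lyn and Fyn was not tested.

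Between Btnl2-KO and WT libraries, outside the duodenal γδ IELs, none of the members passed in any of 7 comparisons (33 tests of members that met the count minimum, edgeR). At an unadjusted p under 0.05 there were 3, and DESeq2 and limma-voom each called 1, Kitl in ileal γδ IELs. Of all genes, 0.0202% were called in SI tissue, 0.0269% in colon, 0% in duodenal and jejunal IECs, 0.00774% in ileal IECs, 0.00794% in jejunal γδ IELs, and 0% in ileal γδ IELs. Even the deleted gene, Btnl2, went uncalled by edgeR in some of these fits. Its difference was -4.13 ± 0.98 for duodenal IECs, -2.74 ± 1.11 for jejunal IECs, and -5.92 ± 0.87 for ileal γδ IELs. Both of these IEC groups include a library that kept some Btnl2. In these fits, the lack of a call for a member does not show that it was unchanged. For ileal γδ IELs the paper, using DESeq2, reports a large set of genes lower in Btnl2-KO mice. In SI tissue, Btnl2-KO minus WT was 0.12 ± 0.43 (SE) for Mcpt1 and 0.30 ± 0.41 for Mcpt2 (adjusted p = 0.88 and 0.67, and 0.01 and 0.16 without the SI libraries with Gata4). Without WT SI replicate 1, which held 21.2 CPM of Mcpt1, the differences were 0.77 and 0.94 (adjusted p = 0.10 and 0.061 in edgeR), and limma-voom with all libraries gave 0.77 and 0.88 (adjusted p = 0.17 and 0.064), none of them called. In colon it was -0.38 ± 0.35 for Mcpt1 and 0.31 ± 0.52 for Cma1 (adjusted p = 0.97 and 0.98). Mcpt2 differed by 0.12 ± 0.50 in duodenal, 0.46 ± 0.43 in jejunal, and -1.03 ± 0.51 in ileal IECs, where Mcpt1 differed by -1.18 ± 0.54 (adjusted p = 0.90 in edgeR). Ileal Mcpt1 was 4.61, 9.59, and 15.4 CPM in Btnl2-KO and 31.5 and 13.7 CPM in WT mice, and without the library lacking Fabp6 the difference was -0.84 for Mcpt1 and -0.72 for Mcpt2. Mcpt2 differed by -0.47 ± 1.03 in jejunal and -1.73 ± 1.39 in ileal γδ IELs, and by 0.53 without WT jejunal replicate 2 and 0.05 without WT ileal replicate 3. A difference of Mcpt2 as large as the fitted one in the duodenum was not bounded by the wide errors in jejunal and ileal γδ IELs.

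Kit differed between genotypes by 0.02 ± 0.26 (SE) in SI and -0.28 ± 0.26 in colon tissue, and by -0.33 ± 0.23 in jejunal and 0.89 ± 0.37 in ileal γδ IELs (adjusted p = 0.96, 0.97, 0.63, and 0.54 in edgeR). The fitted difference in duodenal γδ IELs was 0.20, given without a test. Values of members not named in this or the preceding paragraph lay between -1.16 ± 1.40 (Mcpt1 in ileal γδ IELs) and 0.94 ± 0.68 (Cpa3 in jejunal IECs), with adjusted p of 0.64 or more in edgeR. Without the jejunal IEC library that kept 18.8 CPM of Btnl2, the difference of Cpa3 was 0.46. In ileal IECs Kit differed by -0.22 ± 0.42, and by 0.12 without the library lacking Fabp6. Kitl was higher in all 3 jejunal Btnl2-KO IEC libraries (169, 168, and 172 CPM) than in the WT libraries (145, 90.3, and 122 CPM), by 0.51 ± 0.20 (adjusted p = 0.57 in edgeR), where 17.4% of genes did not overlap. Without the library that kept 18.8 CPM of Btnl2 the difference was 0.52. In ileal γδ IELs Kitl was lower by -1.97 ± 0.55 (adjusted p = 0.44 in edgeR, 0.017 with DESeq2, and 0.031 with limma-voom). The study names Kitl from these libraries, so this is not independent evidence. With the epithelial list as a covariate the difference was -0.83 (adjusted p = 0.50), and the epithelial sums are those given above, 989 to 3540 CPM in Btnl2-KO and 3376 to 8803 CPM in WT libraries. None of the 18 genes of Kit signalling was called by edgeR in any of the 7 comparisons, and at an unadjusted p under 0.05 there were 4 in SI tissue, 1 in jejunal IECs, and 3 in ileal γδ IELs.

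**Figure D5:**
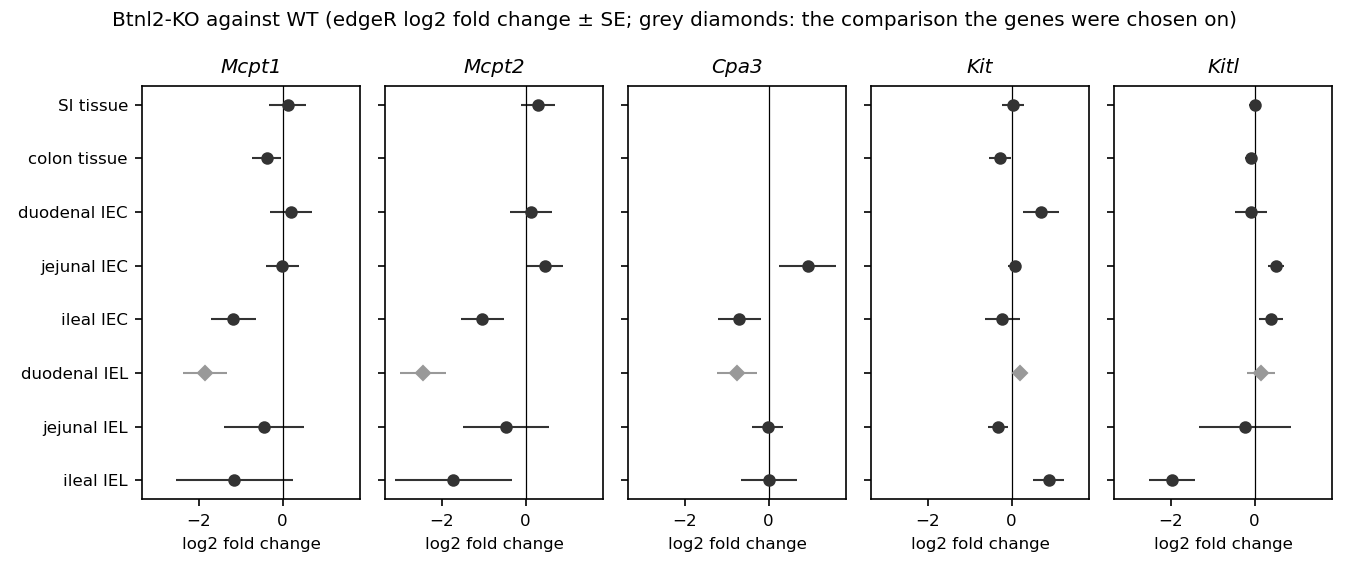
Log2 fold change of Btnl2-KO over WT with its SE for Mcpt1, Mcpt2, Cpa3, Kit, and Kitl where they met the count minimum, by tissue and segment; grey diamonds mark duodenal γδ IELs, from which Mcpt2 was chosen and for which no test is given. Cma1 in colon tissue and Mcpt4 in ileal IECs also met the minimum and are not shown. Outside those, no member was called, and the SE of Mcpt1 and Mcpt2 is 1.40 and 1.39 in ileal γδ IELs against 0.43 and 0.41 in SI tissue.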

How the data were processed

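Libraries were grouped by the labels, 27 of tissue, 16 of IECs, 22 of γδ IELs, and 6 of single cells. Replicate numbers follow the order of deposition and only name a library. For the bulk tables, per the paper's methods, the authors mapped reads to a mouse genome (GRCm38 in the labels) and deposited expected counts of sense-strand exon reads estimated by RSEM. Of these values 5.00% were not whole in the γδ IEL table, 17.2% in tissue, and 14.9% in IECs. The kit for library preparation differs between the labels and the paper. For single cells the authors deposited counts of UMIs per gene and barcode, not normalized. In the γδ IEL table, 1 column that matched none of the samples was not used. Of 24475 identifiers, 24375 had a symbol, and the rest held 0.25 to 9.24% of a library's counts. These were kept in library sizes and, where they met the count minimum, in the tests.

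Estimated counts were rounded, and genes that reached 10 counts in a number of libraries equal to the smaller group were tested with edgeR 4.0.16 in R 4.3.3 (TMM, quasi-likelihood test, Benjamini-Hochberg adjustment over all genes tested). A gene was called at an FDR below 0.05 and a fold change above 1.5. The 3 WT segments of IECs were fitted together and other comparisons by their own libraries. DESeq2 1.42.0, limma-voom (limma 3.58.1), other scalings, filters, and left-out libraries were alternatives. The fits were tested on simulated data. For members under the minimum in tissue, exact permutation tests were added after the data were seen, as was a fit of Il1rl1 without 1 library. CPM was computed from the TMM library sizes and, per kilobase, from the union of exons in GRCm38.p6. Intervals of single-cell sums cover counting error only. With 13444958 to 38258472 counts per bulk library, a floor of 3 counts lies well under 1 CPM.

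The 8 members and all gene lists were chosen with earlier results of these data known. All members were fitted in every comparison in which they met the count minimum and are given singly or by range, list genes by counts, medians, and up to 4 examples with the lowest p, and for likeness the 5 genes with the highest correlation for members with at least 10 counts in 50% of the libraries of a table. Further genes are named where they mark a cell type or a library. Some of these likeness results in tissue are not reported here.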

Additional observations from a re-analysis of the deposited data

Results flagged for a closer look

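In 5 of 40 groups of 4 to 10 libraries, for the 8 genes, the highest library stood apart from the others by Dixon's criterion. The limits flag about 1 in 20 groups when values are normally distributed and groups independent. CPM of low counts is skewed, and the flagged groups share libraries and hold correlated genes. The number flagged is therefore not read against that rate. The WT SI tissue replicate 1 held 21.2 CPM of Mcpt1 against 5.87 CPM in the next library, 7.75 CPM of Mcpt2 against 2.07, and 1.48 CPM of Tpsb2 against 0.53. The same library held 148.8 CPM of Il1rl1, against 5.04 to 16.4 CPM in the other WT SI libraries, and the sum of its further mast cell genes was 229 CPM. The WT jejunal γδ IEL replicate 2 held 22.9 CPM of Mcpt1 against 5.46 CPM in the next library and 13.1 CPM of Mcpt2 against 3.62.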

How the results depend on the processing

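Of 284 alternative counts of called members in 16 comparisons, 266 stayed within 1.5 times the reported count. In most comparisons that count was 0, and an unchanged 0 was taken as within the limit. A fall from 3 to 2 was also within it. Between WT colon and SI, Kit kept its call in only 7 of 13 refits that left out a library. In ileal γδ IELs, Btnl2-KO against WT, DESeq2 and limma-voom each called 1 member (Kitl) in place of 0. Without a filter on low counts, 4 members in place of 2 were called between Btnl2-KO colon and SI. Between WT ileal and duodenal IECs, 1 member was called, but 3 with DESeq2, limma-voom, or no filter, 0 with all libraries in 1 fit, and 0 to 3 on leaving out a library (0 without either ileal library, 3 without duodenum replicate 2 or jejunum replicate 1). Between WT ileal and jejunal γδ IELs, 2 were called, 1 with all libraries in 1 fit, and 1 to 2 on leaving out a library. With limma-voom 1 member in place of 0 (Kit) was called in the γδ IEL interaction. The cause of these shifts was not tested. In duodenal γδ IELs the fitted difference ranged from -3.45 (without Btnl2-KO replicate 3) to -2.01 for Mcpt2, and from -0.93 to -0.34 (without WT replicate 3) for Cpa3. Only the 13 log2 differences called by edgeR, DESeq2, or limma-voom were followed in this way, so a change of sign was unlikely from the start. Of their 228 alternative values, 196 kept their status as called or not called, 18 lost a call, 14 gained one, and 0 changed sign. Differences outside this set did change sign, such as Kit in ileal IECs, Btnl2-KO against WT, from -0.22 to 0.12 without the library lacking Fabp6. With all barcodes, Kitl was 0.48 in place of 0.15 CPM of UMIs in the duodenal and 0.57 in place of 0.098 in the jejunal Btnl2-KO single-cell library. No paired analysis was possible because the labels give no replicate numbers that groups share. Proteases under 1 CPM rest on few counts, and with 2 or 3 IEC libraries a group small differences could not be seen.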
